A study of Mus musculus with 14 samples.

Results

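Cebpb, Spi1 and 8 genes of monocytes were followed across 14 RNA-seq libraries of transplanted mouse hematopoietic stem cells (HSCs). The 10 genes are a list given by name, out of 1573 genes listed for either of 2 comparisons. The first comparison sets HSCs from old donors (oHSCs, 4 libraries) against HSCs from young donors (yHSCs, 3 libraries), and its table holds 7 of the 10 genes among 1043. The second sets oHSCs that received guide RNAs against Clu (sgClu, 4 libraries) against oHSCs with control guides (sgCtrl, 3 libraries), and its table holds 5 of the 10 among 583. Cebpb and Cd14 are the 2 members that both tables hold. Csf1r, Spi1, Fcgr3, Fcgr2b and Igsf6 are listed for age alone, and S100a8, S100a9 and Ly6c2 for Clu knockout (KO) alone. The table of the other comparison, as analysed here, holds no values of those genes.

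In both experiments donor HSCs were transplanted into lethally irradiated CD45.1 recipients, which the methods of the study give as 2 months old, and were sorted from recipient bone marrow 4 months later. The KO donors were Rosa26-Cas9 knock-in mice aged 24 months, so that sgCtrl and sgClu oHSCs both carried Cas9 and a lentiviral vector with mCherry. For the old and young donors of the first comparison the labels give no age or strain. The labels call every library hematopoietic stem and progenitor cells and do not say how many mice a library holds, so the p-values measure the spread between libraries, which may be technical in part. Both tables are limited to genes called by the authors in the very libraries analysed here. The study counts more genes changed by Clu KO than the KO table holds. Absence from that table thus does not show that a gene was not called. The age table lists genes called higher in oHSCs, and 1005 of its 1043 genes had the higher mean there. The direction of the members and of the other genes held in that comparison was thus fixed by the listing. Values are FPKM (fragment counts divided by transcript length and by the library's mapped fragments), although no header names the unit. The depth of the libraries is unknown. Summed over the listed genes, oHSC libraries came to 71628 to 84123 FPKM, yHSC libraries to 42199 to 54607 FPKM, sgClu libraries to 10841 to 12502 FPKM and sgCtrl libraries to 17005 to 18573 FPKM. Of 15 HSC marker genes the age table holds Slamf1 and Procr and the KO table Procr and Fgd5, so the label could be checked against few markers. Slamf1 (log2 fold change 0.75, SE 0.31) and Procr (0.90, SE 0.30) were called higher in oHSCs at the limits given with the members, and in sgClu oHSCs Procr (-0.76, SE 0.32) was called lower and Fgd5 (-0.63, SE 0.31) was not past the limits. The part of these genes in the values of the members was not tested. Clu, the targeted gene, is not in the KO table, and the guide labels were not checked against it.

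Monocytes arise from HSCs through progenitors in which PU.1, the product of Spi1, opens myeloid enhancers. C/EBP factors then direct granulocyte and monocyte genes, and C/EBPβ, the product of Cebpb, is the member of that family best known for emergency and inflammatory myelopoiesis. Their targets include the receptor for the growth factor M-CSF (Csf1r), the co-receptor for bacterial lipopolysaccharide (Cd14), receptors for the constant part of antibodies (Fcgr3, Fcgr2b) and the calcium-binding alarmins S100A8 and S100A9, which pair to form calprotectin. Such myeloid genes are detected at low levels in stem cells before any differentiation. In bulk RNA, a change in the number of cells that express a gene and a change in RNA per cell cannot be told apart.

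The guides are shown because the KO comparison rests on them. Each Clu guide is given 5′ to 3′ in lower case, followed in capitals by the bases next to its match in the annotated Clu transcripts, the PAM that Cas9 requires.
Clu_sgRNA_1: gagattcagaacgccgtccaGGG
Clu_sgRNA_2: agtgtgtaacgagaccatgaTGG
Clu_sgRNA_3: aacatgttgtggaagctcggAGG
The methods say that the 3 guides were packaged together. Clu lies on the plus strand at chr14:65968483-65981547 (GRCm38, GENCODE M21). The guides match coding exons at chr14:65973360-65973379, chr14:65974896-65974915 and chr14:65975875-65975894, in 7, 8 and 3 of the 9 annotated transcripts. The first and second match the strand of Clu and the third the opposite strand. The control guides listed for the study have 0 exact matches in the transcripts of Clu or of any other annotated gene, which says nothing of the genome outside transcripts.
Non_target_con_1_sgRNA_1: ggacggatgggacgactagt
Non_target_con_1_sgRNA_2: ctgcacggcacgacatccaa
Non_target_con_1_sgRNA_3: cattgtagactcgtacggat

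Of the 7 members with a promoter in the table used, the 5 that hold a match to a motif are shown, so that the matches can be read in place. Each covers 250 bases before and 50 after a RefSeq start (GRCm38.p6), 5′ to 3′ along the gene. Matches to 5 motifs, searched on both strands, are in capitals: TTGCNNAA (C/EBP), TGACG (the core of the cyclic AMP response element, CRE), AGGAAGT (PU.1), TGANTCA (AP-1) and TATAAA (the box of that name). No 2 of the matches overlap.
Cebpb, chr2:167688665-167688964 (plus strand): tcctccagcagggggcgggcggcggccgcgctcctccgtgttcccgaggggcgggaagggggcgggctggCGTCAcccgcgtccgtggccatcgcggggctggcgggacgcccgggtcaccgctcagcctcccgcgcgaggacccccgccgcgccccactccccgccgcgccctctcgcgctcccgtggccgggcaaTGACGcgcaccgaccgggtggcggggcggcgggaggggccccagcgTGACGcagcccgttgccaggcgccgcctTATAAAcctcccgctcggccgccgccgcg
Fcgr3, chr1:171059354-171059653 (minus strand): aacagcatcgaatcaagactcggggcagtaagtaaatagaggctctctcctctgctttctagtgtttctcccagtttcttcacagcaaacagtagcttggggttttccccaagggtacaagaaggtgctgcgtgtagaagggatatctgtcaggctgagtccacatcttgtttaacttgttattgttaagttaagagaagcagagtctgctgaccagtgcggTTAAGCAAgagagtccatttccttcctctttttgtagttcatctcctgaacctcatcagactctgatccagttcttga
S100a8, chr3:90668821-90669120 (plus strand): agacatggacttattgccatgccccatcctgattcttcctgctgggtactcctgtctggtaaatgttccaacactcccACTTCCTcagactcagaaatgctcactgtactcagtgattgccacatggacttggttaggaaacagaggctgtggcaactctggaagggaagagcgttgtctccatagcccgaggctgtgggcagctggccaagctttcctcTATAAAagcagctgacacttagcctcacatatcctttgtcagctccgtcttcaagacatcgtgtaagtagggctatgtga
S100a9, chr3:90695672-90695971 (minus strand): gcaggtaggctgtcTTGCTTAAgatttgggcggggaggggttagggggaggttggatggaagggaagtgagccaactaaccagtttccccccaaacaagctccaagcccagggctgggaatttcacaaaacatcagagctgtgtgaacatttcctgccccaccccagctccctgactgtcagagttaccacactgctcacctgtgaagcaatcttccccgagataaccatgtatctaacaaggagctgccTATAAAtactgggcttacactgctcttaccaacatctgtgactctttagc
Ly6c2, chr15:75111922-75112221 (minus strand): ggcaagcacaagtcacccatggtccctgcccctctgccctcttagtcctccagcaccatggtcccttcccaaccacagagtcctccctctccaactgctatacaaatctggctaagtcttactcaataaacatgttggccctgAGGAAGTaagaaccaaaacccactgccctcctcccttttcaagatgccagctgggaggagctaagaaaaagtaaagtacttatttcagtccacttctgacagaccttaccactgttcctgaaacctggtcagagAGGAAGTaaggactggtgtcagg
The Cebpb promoter, at 80.7% G and C, holds the CRE core at 3 places and a TATA motif. The Fcgr3 window holds 1 C/EBP motif and the S100a9 window 1 C/EBP motif and a TATA motif. The S100a8 window holds 1 PU.1 and 1 TATA motif, and the Ly6c2 window 2 PU.1 motifs. Counted from the RefSeq start, whose first base is 1, the TATA letters begin at -30 in S100a8, 1 in S100a9 and 22 in Cebpb. The Fcgr2b and Igsf6 windows, not printed, hold none of the 5. Over all 32851 windows of this length, 10.8% hold the C/EBP letters, 20.8% the CRE core, 9.35% the PU.1 letters, 7.81% the AP-1 letters and 13.6% the TATA letters. A match describes the letters and is no evidence of binding. For Spi1, Csf1r and Cd14, no promoter was in the table used.

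Cebpb and the receptors Cd14 and Fcgr3 were the members furthest above yHSCs in transplanted oHSCs. Of the 7 members held, 5 were higher in oHSCs at the limits used, an unadjusted p of 0.05 and a log2 fold change of 0.5 (limma on log2 of FPKM + 1), where 62.5% of the 1043 listed genes were. The median log2 fold change was 1.003 over the members and 0.70 over all listed genes. At adjusted p-values 4 of the 7 members were called higher, against 37.3% of all genes. All 4 oHSC libraries lay above all 3 yHSC libraries for 3 members, against 49.7% of the listed genes. The counts of 5 and 3 of 7 lie near the shares of the whole list and say nothing particular to the members.

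Cebpb, on the plus strand at chr2:167688915-167690418, measured 79.1, 103.7, 66.0 and 84.6 FPKM in oHSC replicates 1 to 4 and 35.5, 37.0 and 19.6 FPKM in yHSC replicates 1 to 3. Every oHSC library was above every yHSC library, and the lowest oHSC value was 66.0 FPKM against a highest yHSC value of 37.0 FPKM. The means were 83.3 ± 15.6 FPKM (SD, n = 4) and 30.7 ± 9.68 FPKM (SD, n = 3), a ratio of 2.71. On the log2 scale the difference was 1.45 (SE 0.28, limma adjusted p = 0.00718), larger than that of 93.5% of the listed genes. Permuting the libraries exactly, two-sided (the one-sided p doubled), gave p = 0.0571, the smallest that this test allows with 4 against 3 libraries. The single exon of Cebpb overlaps exons of Tmem189 on the other strand, which share 18.1% of its 50-base words, and the counting is not stated to use strand.

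Spi1, at chr2:91082390-91115756 on the plus strand, did not separate the groups. Its oHSC values were 80.0, 77.3, 61.0 and 53.3 FPKM and its yHSC values 61.2, 52.8 and 25.6 FPKM. The 2 lower oHSC values lay inside the yHSC range, and yHSC replicate 3 was the only library well below the others. Its log2 fold change, 0.61 (SE 0.31, limma adjusted p = 0.105), missed the limits and was smaller than the median of the listed genes. With the replicate number as a block it was 0.71 (SE 0.24) and passed them, in a fit that gives no weight to oHSC replicate 4, which has no partner. Leaving out yHSC replicate 1 also brought Spi1 past the limits (0.84), and leaving out yHSC replicate 3 reduced it to 0.23. Against Cebpb within each library, where no library-wide factor enters, Spi1 stood at 0.63 to 1.01 times the Cebpb level in oHSCs and at 1.31 to 1.72 times in yHSCs. These ratios, chosen after the values were seen, did not overlap between groups, and 32.2% of the other listed genes also had a lower ratio to Cebpb in every oHSC library than in every yHSC library.

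Cd14, which hands lipopolysaccharide to Toll-like receptor 4, measured 17.3, 12.1, 9.69 and 6.51 FPKM in oHSCs and 5.40, 1.92 and 2.49 FPKM in yHSCs. Its groups did not overlap, although the lowest oHSC library was only slightly above the highest yHSC library. Cd14 had the highest log2 fold change of the members, 1.55 (SE 0.35, limma adjusted p = 0.0137). Csf1r, the M-CSF receptor, was the lowest of the 7 members, at 2.07, 2.30, 1.93 and 2.39 FPKM in oHSCs and 1.23, 1.94 and 1.83 FPKM in yHSCs. The groups overlapped, and Csf1r missed the limits, with 0.26 on the log2 scale (SE 0.21, limma adjusted p = 0.263). Csf1r shares 17.7% of its 50-base words with Hmgxb3. Its fold change was above that of 8.15% of the listed genes.

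Fcgr3 and Fcgr2b are neighbours on chromosome 1 and encode an activating and an inhibitory IgG receptor. Fcgr3, on the minus strand at chr1:171051174-171064935, measured 185.6, 89.5, 85.7 and 108.0 FPKM in oHSCs and 56.8, 42.4 and 24.2 FPKM in yHSCs. Every oHSC library was above every yHSC library, and oHSC replicate 1 was well above the other 3. Fcgr3 rose by 1.497 on the log2 scale (SE 0.35, limma adjusted p = 0.0142). Fcgr2b, on the minus strand at chr1:170958617-170976547, measured 56.2, 38.4, 25.2 and 33.5 FPKM in oHSCs and 22.9, 27.9 and 16.6 FPKM in yHSCs. The groups overlapped, since oHSC replicate 3 was below yHSC replicate 2. Its log2 fold change of 0.72 (SE 0.30, exact two-sided permutation p = 0.114) passed the limits and missed them at an adjusted p (limma adjusted p = 0.0648). It was no longer past them without oHSC replicate 1 (0.52) or 2 (0.70), or without yHSC replicate 1 (0.75) or 3 (0.52), nor with a pseudocount of 0.1 (0.74). The 2 genes share sequence, in 12.8% of the 50-base words of Fcgr3 and 12.5% of those of Fcgr2b, and reads there can be counted for either. The level of Fcgr3 was 2.33 to 3.40 times that of Fcgr2b in oHSC libraries and 1.46 to 2.48 times in yHSC libraries, and these ranges overlapped.

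Igsf6, an immunoglobulin superfamily gene of myeloid cells on the minus strand at chr7:121064067-121074572, measured 38.4, 24.1, 18.5 and 29.9 FPKM in oHSCs and 19.4, 15.1 and 7.11 FPKM in yHSCs. One oHSC library lay just below the highest yHSC library. Igsf6 rose by 1.003 on the log2 scale (SE 0.35, limma adjusted p = 0.0461, exact two-sided permutation p = 0.114), and it was not past the limits without yHSC replicate 3 (0.62). In order of their level in oHSCs, Fcgr3 (117.2 ± 46.6 FPKM), Cebpb (83.3 ± 15.6 FPKM) and Spi1 (67.9 ± 12.8 FPKM) came before Fcgr2b (38.3 ± 13.1 FPKM), Igsf6 (27.7 ± 8.46 FPKM), Cd14 (11.4 ± 4.53 FPKM) and Csf1r (2.17 ± 0.211 FPKM; each SD, n = 4). Fcgr3 and Cebpb overlapped in their values, as did Cebpb and Spi1, Spi1 and Fcgr2b, and Fcgr2b and Igsf6.

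**Figure D1:**
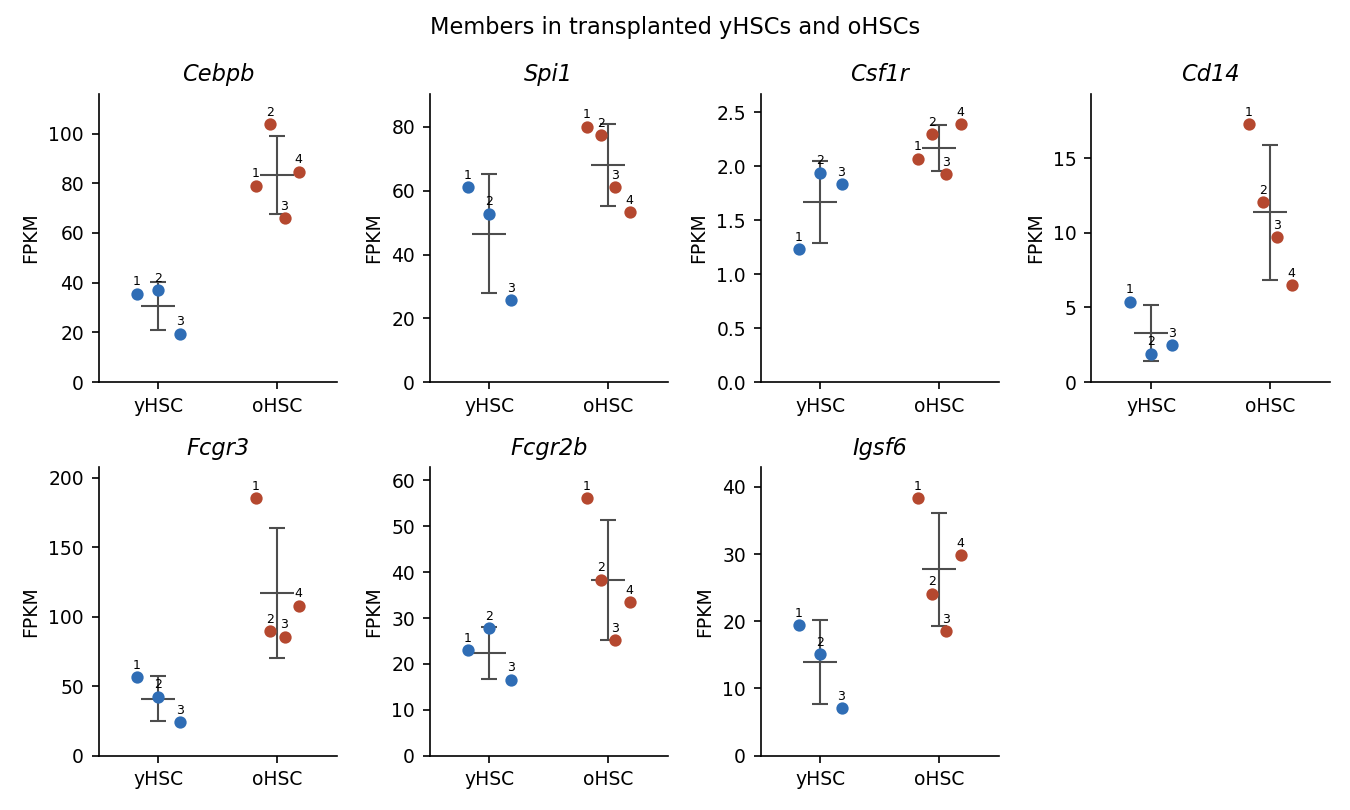
Level of the 7 members held for age, in FPKM (vertical axes, from 0), in yHSC (blue, 3 libraries) and oHSC (red, 4 libraries). Points are libraries with their replicate number, and bars are the mean ± SD. Cebpb, Cd14 and Fcgr3 separate the groups and the other 4 genes overlap.

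All fold changes for age stand against a listing that is shifted as a whole. When the libraries were rescaled over the listed genes, which removes a shared shift by construction, the median log2 fold change of all listed genes went from 0.70 to 0.19 with column totals and to 0.07 with the median of ratios. With column totals 151 genes were higher and 40 lower, and with the median of ratios 124 and 54, against 652 and 10 as deposited. Cebpb was 0.79 and 0.64, Cd14 0.999 and 0.87, and Fcgr3 0.84 and 0.69 under these scalings, and all 3 stayed past the limits. Igsf6 (0.37 and 0.23) and Fcgr2b (0.07 and -0.08) did not. Spi1 turned to -0.05 and -0.20, and Csf1r to -0.19 and -0.29. Fcgr2b was above the median of the listed genes as deposited and below it under both scalings. A scaling divides all values of a library alike, and on log2 of FPKM + 1 it shifts low genes less. It is therefore no test of the order of the members.

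Other genes of the same lists were also higher in oHSCs, a direction that the listing fixed. Of 39 monocyte receptor and surface genes the table holds 6, of which 5 were called higher, and the 3 that are no members were Cd68 (log2 fold change 0.91), the C-type lectin gene Clec12a (0.71) and Cd300a (0.60). Clec12a and Cd300a turned negative with the median of ratios. Of 22 myeloid transcription factors it holds 3, and Gfi1b (1.75, SE 0.40) and Id2 (0.70, SE 0.24) were called while Spi1 was not. Id2 was -0.06 with the median of ratios. Of the C/EBP family it holds Cebpb and Ddit3, the stress-induced C/EBP homologue, which was at 0.95 (SE 0.22). Of 29 macrophage effector genes it holds 4, with Lyz2 (0.66) and Ncf4 (0.70) called and the cathepsin genes Ctsc (0.59, SE 0.38) and Ctsb (0.62, SE 0.29) not past the limits, and all 4 turned negative with the median of ratios. With the replicate block Ctsc (0.82) and Ctsb (0.75) passed. Of 11 alarmin and S100 genes it holds 0.

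Genes of other cell types held in this table were higher in oHSCs too, a direction that the listing fixed. Of all listed genes, 62.5% were called higher. All 5 granulocyte progenitor genes held of 10 were called higher, although Ctsg, Ms4a3 and Trem3 turned negative with the median of ratios and Ctsg and Ms4a3 with column totals. Their summed level was 7666 to 10924 FPKM in oHSCs and 3980 to 4888 FPKM in yHSCs, led by Elane (4509 ± 856.7 against 2186 ± 312.6 FPKM; SD, n = 4 and 3). All 6 mast cell and basophil genes held of 10 were called higher (Mcpt8 turned negative under both scalings), at 484.3 to 757.1 FPKM in sum against 225.9 to 356.1 FPKM, and the proteases Cma1, Tpsb2 and Tpsab1 were listed at 0 in all 3 yHSC libraries. Of 6 erythroid genes held of 13, 5 were called higher and Epor was not (0.58, and negative with the median of ratios), at 1543 to 2434 FPKM against 818.1 to 1131 FPKM. Of 4 megakaryocyte genes held of 8, 3 were called higher (Pf4 not with the replicate block, and negative with the median of ratios), at 268.7 to 497.8 FPKM against 175.0 to 240.9 FPKM. The table holds 1 of 16 lymphoid genes (Klrb1c) and 1 of 10 dendritic cell genes (H2-Aa), both called higher, with H2-Aa turning negative under both scalings. The part of these cell types in the values of the members was not tested.

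Of the 583 genes in the KO table, 136 had the higher mean in sgClu oHSCs. The 5 members held all had lower means in sgClu than in sgCtrl oHSCs. Of the 5, 4 were called lower at the same limits, where 50.1% of the 583 listed genes were, and the same number passed at adjusted p-values, where 48.2% of the listed genes were lower. The median log2 fold change was -1.60 over the members and -0.52 over all listed genes. Every sgClu library was below every sgCtrl library for 2 members, Cebpb and Ly6c2, against 52.5% of the listed genes. With 5 members, 1 gene moves such shares by much.

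Cebpb measured 102.5, 90.0 and 63.6 FPKM in sgCtrl replicates 1 to 3 and 34.6, 52.5, 40.6 and 59.5 FPKM in sgClu replicates 1 to 4. The groups did not overlap, but sgCtrl replicate 3 and sgClu replicate 4 were close to each other. The means were 85.4 ± 19.9 FPKM (SD, n = 3) and 46.8 ± 11.3 FPKM (SD, n = 4), so that sgClu stood at 0.548 times sgCtrl. Cebpb fell by 0.86 on the log2 scale (SE 0.23, limma adjusted p = 0.0173), with an exact two-sided permutation p of 0.0571, again the smallest that this test allows. The fold change was -0.28 with column-total scaling and -0.23 with the median of ratios, and not past the limits under either. Under these scalings the median of all listed genes was -0.12 and -0.09, and 129 genes were higher and 70 lower with column totals and 130 and 59 with the median of ratios, against 90 and 292 as deposited. Since the median of the listed genes was -0.52 as deposited, these scalings shift the listed genes upwards by construction.

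Ly6c2, a surface marker of inflammatory monocytes on the minus strand at chr15:75108158-75111970, measured 225.0, 322.4 and 299.5 FPKM in sgCtrl and 134.5, 172.5, 106.8 and 128.7 FPKM in sgClu oHSCs. The groups were well apart, and replicate 3, low for the other members in sgCtrl, was high for this gene. Ly6c2 fell by 1.06 on the log2 scale (SE 0.20, limma adjusted p = 0.00573), and was at -0.47 and -0.43 under the 2 scalings, where it was not past the limits. Of the 50-base words of Ly6c2, 13.3% also occur elsewhere among annotated genes, in Ly6c1 first.

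Cd14 measured 19.96, 14.8 and 7.36 FPKM in sgCtrl and 1.11, 5.79, 2.88 and 7.39 FPKM in sgClu oHSCs. The highest sgClu library reached the lowest sgCtrl library, so the groups overlapped. Its fold change was -1.60 on the log2 scale (SE 0.50, limma adjusted p = 0.025, exact two-sided permutation p = 0.114). Without sgCtrl replicate 1 it missed the limits (-1.31), as it did under both scalings (-1.10 and -1.06).

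S100a8 and S100a9 lie close together on chromosome 3, at chr3:90668978-90670035 on the plus and chr3:90692632-90695721 on the minus strand. S100a8 measured 158.7, 162.1 and 14.2 FPKM in sgCtrl and 14.7, 50.7, 6.33 and 13.98 FPKM in sgClu oHSCs. S100a9 measured 18.1, 13.3 and 1.87 FPKM in sgCtrl and 1.88, 1.02, 2.09 and 0.672 FPKM in sgClu oHSCs. For both genes sgCtrl replicates 1 and 2 were far above every other library, and sgCtrl replicate 3 lay among the sgClu libraries. S100a9, at -1.98 on the log2 scale (SE 0.60, limma adjusted p = 0.023, exact two-sided permutation p = 0.171), passed the limits also under both scalings. S100a8, at -2.09 (SE 0.93, limma adjusted p = 0.0658, exact two-sided permutation p = 0.171), did not pass as deposited or under either scaling. Without sgCtrl replicate 3 the values were -2.82 for S100a9 and -3.22 for S100a8, which then passed, and S100a8 also passed without sgClu replicate 2 (-2.62) and, with its value as deposited, when the fit used a mean-variance trend or left out genes under a group mean of 1 FPKM. S100a8 was at 7.63 to 12.2 times the level of S100a9 in the sgCtrl libraries and at 3.02 to 49.9 times in the sgClu libraries.

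**Figure D2:**
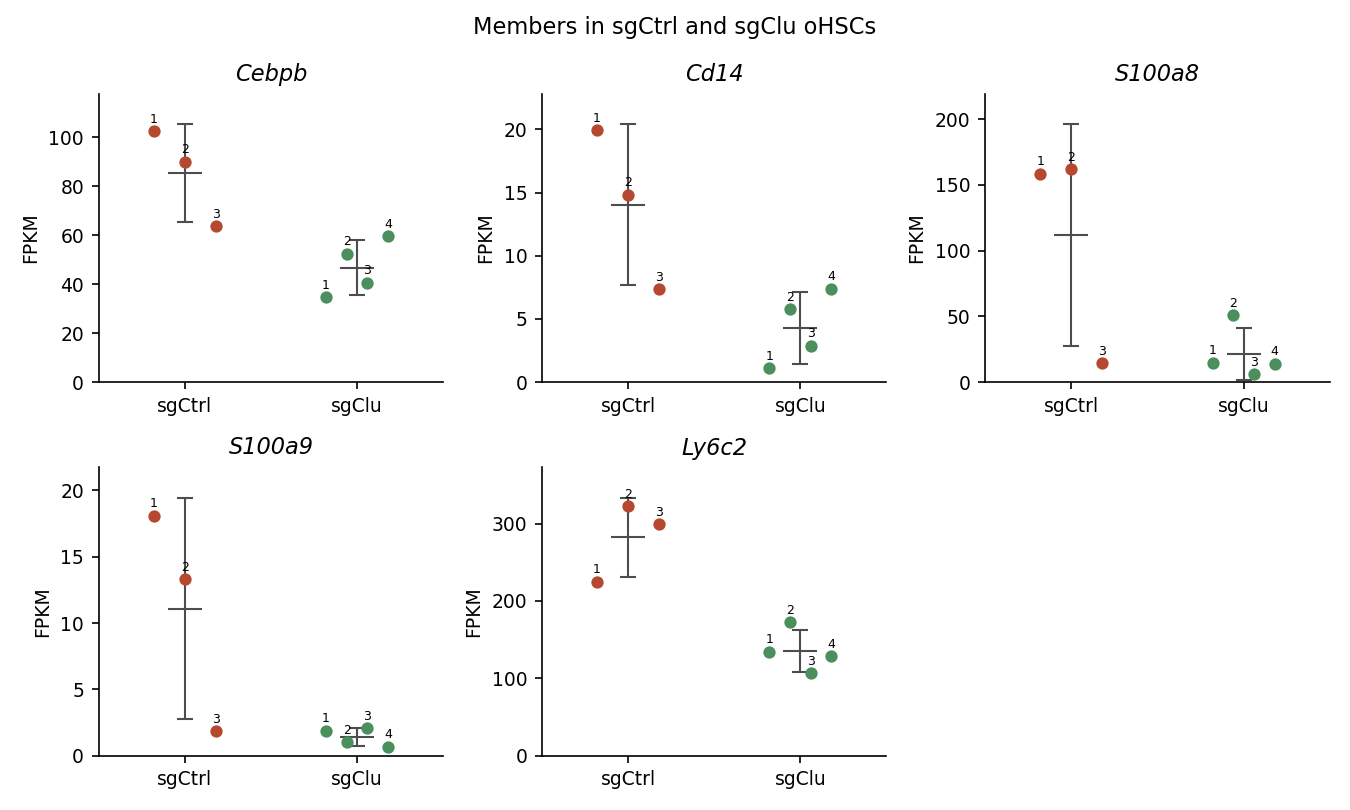
Level of the 5 members held for Clu knockout, in FPKM (vertical axes, from 0), in sgCtrl (red, 3 libraries) and sgClu (green, 4 libraries) oHSCs. Points are libraries with their replicate number, and bars are the mean ± SD. Cebpb and Ly6c2 separate the groups, and sgCtrl replicate 3 lies with the sgClu libraries for S100a8 and S100a9.

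Genes of the same lists also had lower means in sgClu oHSCs. Of the 583 genes in the KO table, 136 had the higher mean in sgClu oHSCs and 50.1% were called lower. Of 39 monocyte receptor and surface genes it holds 3, and Cd86 (-0.45, SE 0.20) was not past the limits. Of 22 myeloid transcription factors it holds 5, and Klf4 (-1.18), Egr1 (-0.77), Nr4a1 (-1.33), Jun (-0.69) and Fos (-0.95) were all called lower. Ddit3, of the C/EBP family, was at -1.26 (SE 0.18). Of 29 macrophage effector genes it holds the cytokine genes Il1b (-0.94), Cxcl2 (-1.06) and Ccl4 (-0.86), all called lower. Of 28 immediate early genes, which are induced within minutes of a stimulus or of cell handling, it holds 20, and all 20 were called lower, with a summed level of 978.6 to 1365 FPKM in sgClu and 1801 to 2582 FPKM in sgCtrl oHSCs. Under the median of ratios and the column totals Ier3 turned positive (0.072 and 0.029). The part of these genes in the change of Cebpb was not tested. The table holds 0 of the granulocyte progenitor, lymphoid, erythroid, megakaryocyte and dendritic cell lists, which does not show that these genes were unchanged. Of 10 mast cell genes it holds only Tpsb2, at 0 in all 4 sgClu libraries and in 1 sgCtrl library and at 34.7 FPKM in sgCtrl replicate 3.

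**Figure D3:**
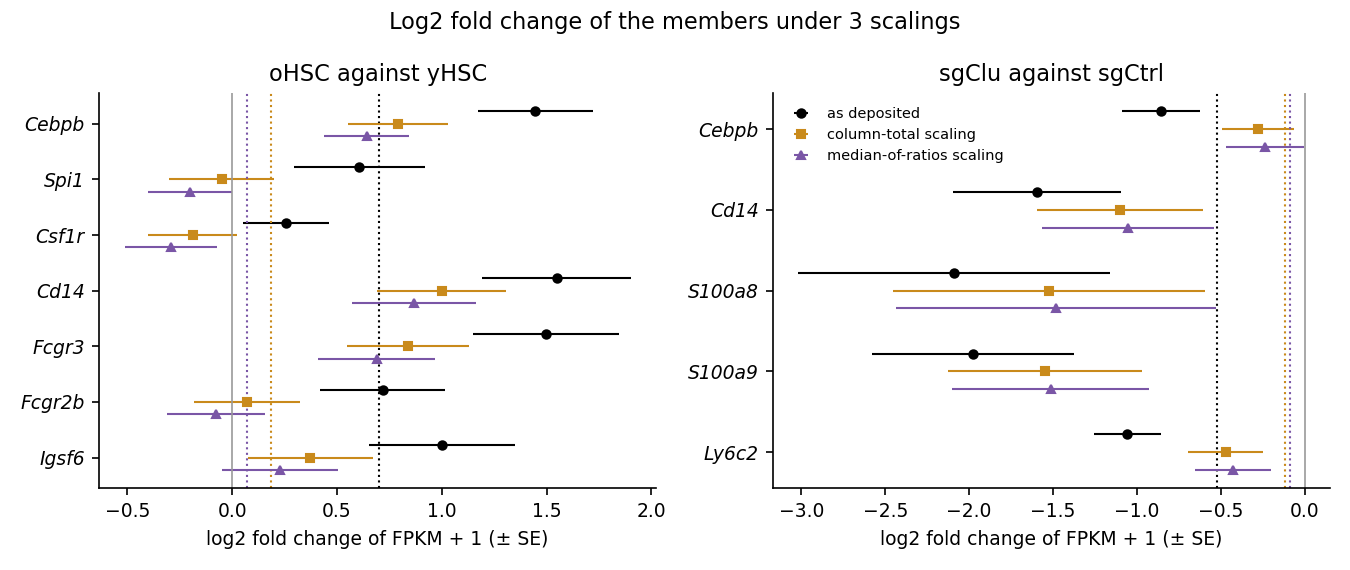
Log2 fold change (horizontal axes, ± SE) of each member on log2 of FPKM + 1, as deposited and after 2 scalings over the listed genes, for age (left) and Clu knockout (right). Dotted lines are the median of all listed genes under each scaling. Cebpb, Cd14 and Fcgr3 stay to the right of the median in age, and the members of the knockout move towards 0 with the scalings.

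The 2 tables were normalized separately and are set side by side without a test. Cebpb was at 66.0 to 103.7 FPKM in transplanted oHSCs and at 63.6 to 102.5 FPKM in sgCtrl oHSCs. It was at 19.6 to 37.0 FPKM in yHSCs and at 34.6 to 59.5 FPKM in sgClu oHSCs. Cd14 was at 6.51 to 17.3 FPKM in oHSCs and 7.36 to 19.96 FPKM in sgCtrl oHSCs, and at 1.92 to 5.40 FPKM in yHSCs and 1.11 to 7.39 FPKM in sgClu oHSCs.

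Covariation with Cebpb was measured within groups, from each library's deviation from its group mean on the log2 scale, over 7 libraries. In the age libraries Spi1 followed Cebpb most closely (r = 0.82, exact permutation p = 0.111; Spearman's rho = 0.61, exact permutation p = 0.229). Igsf6 (r = 0.72, rho = 0.46), Fcgr2b (0.60, 0.57), Fcgr3 (0.51, 0.39), Cd14 (0.17, 0.11) and Csf1r (-0.03, 0.18) followed, with exact permutation p-values of r from 0.167 to 0.986. No listed gene passed an adjusted p of 0.05 with Cebpb over the 1042 genes, and the adjusted p of the 6 members was 0.58 to 0.995. The smallest exact permutation p that these libraries allow is 0.00694. No gene could pass the correction unless many others reached that p as well, so it cannot judge a single gene. The median r of all listed genes with Cebpb was 0.41, so positive values were common in this table, and the r of Spi1 was above that of 90.2% of them and the r of Igsf6 above 79.5%. Without the 2 libraries farthest from the median of Cebpb, oHSC replicate 3 and yHSC replicate 3, Spi1 was at 0.44. Igsf6 (-0.43), Fcgr2b (-0.31) and Fcgr3 (-0.51) turned negative, so their positive r rests on those libraries. Cd14 (-0.11) and Csf1r (0.06), low before, changed sign. Leaving out the extremes of Cebpb narrows its range, which by itself tends to bring r towards 0. Without yHSC replicate 3 alone, the r of Spi1 was 0.33, of Igsf6 0.22, of Fcgr2b 0.40 and of Fcgr3 -0.10. Column-total scaling left Spi1 at 0.67 and the median of ratios at 0.36.

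In the KO libraries Cd14 followed Cebpb closely (r = 0.98, exact permutation p = 0.00694, the smallest that these libraries allow; rho = 1, exact permutation p = 0.0139). Its r was above that of 99.8% of the listed genes, whose median was 0.08, and was 0.98 without sgCtrl replicate 3 and sgClu replicate 1. The adjusted p over all 580 genes was 0.503, so it did not pass the correction. At this smallest p no gene could pass unless many others reached it as well, so the correction cannot judge Cd14 alone. S100a8 (r = 0.68, rho = 0.36), S100a9 (0.36, 0.14) and Ly6c2 (-0.01, -0.11) had exact permutation p-values of r from 0.167 to 0.979 and adjusted p-values of 0.839 to 0.991. Without the same 2 libraries they were at 0.51, -0.27 and 0.21, and without sgCtrl replicate 3 alone S100a8 was at 0.39 and S100a9 at -0.77. Cd14 had the highest r with Cebpb among the 4 other KO members, against 0.17 in the age libraries. The difference between these correlations was not tested.

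**Figure D4:**
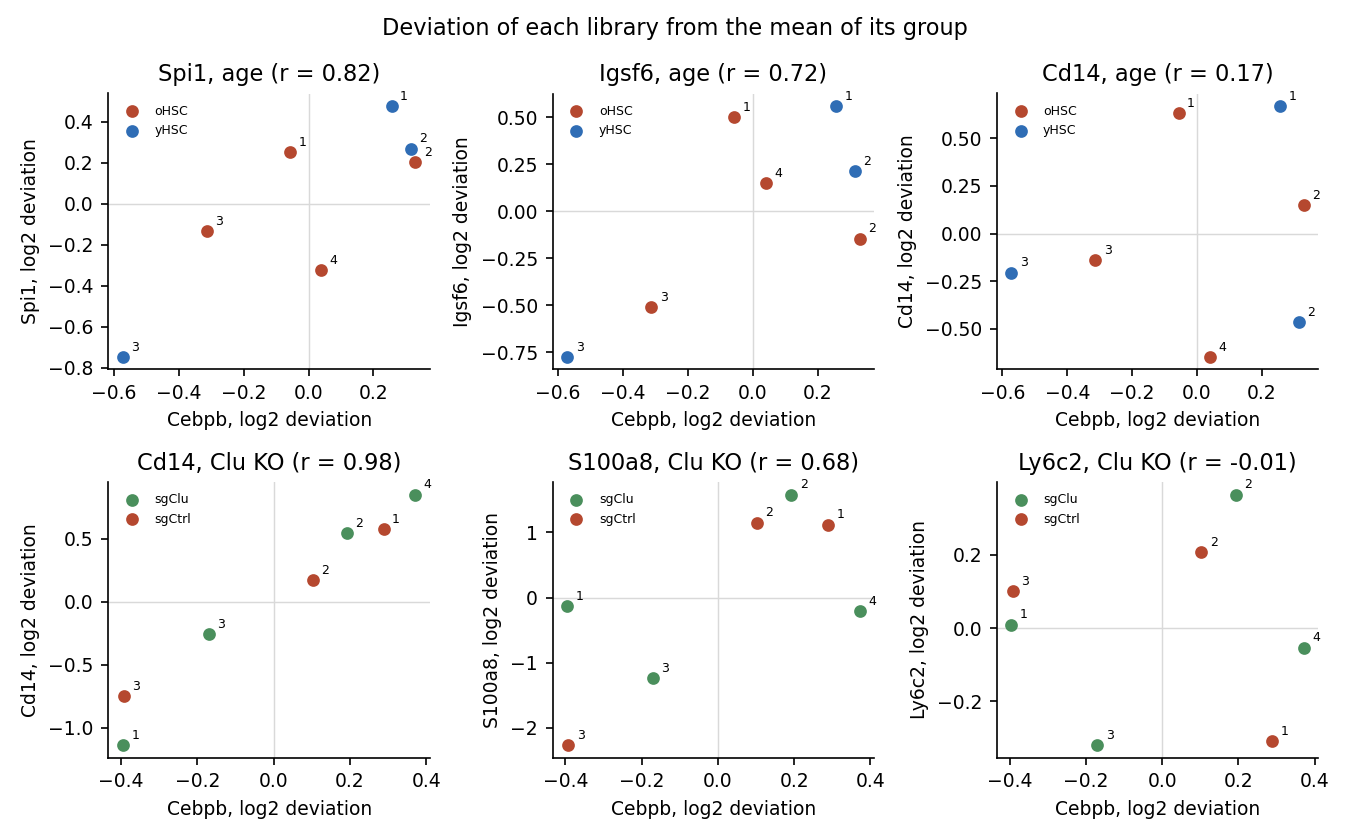
Deviation of each library from its group mean in log2 of FPKM + 1, for Cebpb (horizontal axes) and another member (vertical axes), in the age (upper row) and Clu knockout libraries (lower row). Points carry the replicate number and r is Pearson's correlation over 7 libraries. Cd14 lies along a line with Cebpb in the knockout (0.98) and not in the age libraries (0.17).

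Of the genes that reach 10 FPKM in the mean of a group, those most like Cebpb within the age groups were Aup1 (r = 0.99), Nfkbib (0.98), Mrm3 (0.96), Noc4l (0.96) and Unc119 (0.96), and those most like Spi1 were Tubg1 (0.99), Rab1b (0.99), Cd81 (0.99), Tcn2 (0.99) and Capzb (0.99). In the KO groups those most like Cebpb, leaving out Cd14, were Hras (0.96), H2bc12 (0.95), Fam110a (0.93), Fos (0.92) and Gm7367 (0.91). None of these passed an adjusted p of 0.05 over all genes of their table (exact permutation within groups), and they are named as descriptions over 7 libraries. With so few pairings, no gene could pass unless many others reached the smallest possible p as well. Fam110a and Fos were lower in sgClu than in sgCtrl oHSCs, like Cebpb, and Hras, H2bc12 and Gm7367 had higher means there. With Spi1, the members Igsf6 (r = 0.79, rho = 0.86), Fcgr3 (0.76, 0.79) and Fcgr2b (0.68, 0.64) had exact permutation p-values of r of 0.104 each, in a table whose median r with Spi1 was 0.48.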

How the data were processed

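RNA-seq was made with SMART-Seq v4 and Nextera XT chemistry. TrimGalore (trimming), Hisat2 (alignment to mm10), FeatureCounts (gene counts) and DESeq2 (calls) were the tools of the authors. The deposited values are taken as FPKM, which the authors scaled to transcript length and to each library. As no header gives a unit, TPM cannot be told apart. Only genes called by the authors are held, so the p-values describe a selected list, and 0 value columns were left out.

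Each gene was tested with limma (version 3.58.1, R 4.3.3) on log2(FPKM + 1), and a fold change on this scale understates that of low genes. P-values were adjusted by Benjamini-Hochberg over all genes of a table, correlations included. The scripts were tested on simulated data. Exact permutation tests (SciPy 1.17.1) used 35 splits or all pairings within groups. Same-numbered age libraries correlated at 0.405, 0.163 and 0.161 in their deviations across genes, and the differently numbered oHSC replicate 4 and yHSC replicate 3 at 0.191. The block fit takes the label numbers as pairs, which these values do not establish. Shared sequence is the share of 50-base words of the longest GENCODE M21 transcript found in other genes.

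Named are the members, the genes of fixed lists that the tables hold, and the 5 genes most like Cebpb or Spi1 that reach 10 FPKM in the mean of a group. Members and lists were chosen with earlier results of these data known. Alternatives were a mean-variance trend, 2 scalings, a pseudocount of 0.1, a filter at 1 FPKM, the replicate block, adjusted p-values, a limit of 1 on the log2 fold change, Spearman's rho and each library left out.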

Additional observations from a re-analysis of the deposited data

How the results depend on the processing

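For age, the count of members called higher stayed between 3 and 6 over all alternatives. It was 3 under both scalings and without yHSC replicate 3, where Fcgr2b and Igsf6 dropped out, and 3 to 5 with single libraries left out. Of all listed genes, 11.9% were higher with the median of ratios, 14.5% with column totals, 38.8% without yHSC replicate 3, 38.8% to 62.8% with single libraries left out and 72.1% with the replicate block. The log2 fold change of Cebpb for age was past the limits under every alternative, between 1.16 and 1.60 with each library left out. For the Clu KO, the count of members called lower was 3 to 5 with each library left out and 1, S100a9, under both scalings, which take out a shared shift by their design. Of all listed genes, 41.3% to 50.6% were lower with each library left out, 12.01% with column totals and 10.1% with the median of ratios. The log2 fold change of Cebpb in the KO was between -1.05 and -0.71 with each library left out, was not past the limits with column totals (-0.28) or the median of ratios (-0.23), and at -0.86 was short of a limit of 1. S100a8 was called with the mean-variance trend and with the filter at 1 FPKM.

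With the replicate block 6 members were called for age, Spi1 being the addition, and Cebpb was at 1.43. In the KO the numbers are shared labels only, since same-numbered libraries correlated at -0.10, 0.07 and 0.06. There 5 members were called with the block, S100a8 (-2.02, SE 0.46) being the addition, against 46.3% of the listed genes, and Cebpb was at -0.98. No other call of a member changed with the block.

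Directions that turned with column totals were, in log2 fold change, Spi1 (-0.051), Csf1r (-0.19), Lyz2 (-0.0100), Ctsc (-0.050), Ctsb (-0.020), Ctsg (-0.0067), Ms4a3 (-0.025), Mcpt8 (-0.13) and H2-Aa (-0.0022) for age and Ier3 (0.029) for the KO. With the median of ratios they were Spi1 (-0.20), Csf1r (-0.29), Fcgr2b (-0.078), Id2 (-0.065), Clec12a (-0.10), Cd300a (-0.088), Lyz2 (-0.16), Ctsc (-0.20), Ctsb (-0.17), Ncf4 (-0.098), Ctsg (-0.16), Ms4a3 (-0.18), Trem3 (-0.028), Mcpt8 (-0.28), Epor (-0.10), Pf4 (-0.14) and H2-Aa (-0.15) for age and Ier3 (0.072) for the KO. The r with Cebpb turned for Csf1r in age (0.18 as Spearman's rho, 0.044 with the median of ratios, -0.37 to 0.64 with each library left out), Cd14 in age (-0.24 with column totals, -0.62 with the median of ratios, -0.11 to 0.47 with each library left out) and Fcgr3 in age (-0.022 with the median of ratios, -0.10 to 0.78 with each library left out). In the KO it turned for S100a9 (-0.77 to 0.62 with each library left out) and Ly6c2 (0.14 with the median of ratios, 0.022 with column totals, -0.29 to 0.37 with each library left out). The cause of these changes was not tested. Depth, which limits low genes such as Csf1r, S100a9 and Cd14 most, is not known.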
